A study of Mus musculus with 4 samples.

Results

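Collagens, laminins and integrins were examined as a set of 85 genes out of the 19937 genes that the arrays named singly. The set held every gene whose symbol marks it as a collagen chain (44), a laminin chain (10) or an integrin subunit (27), and the 4 matrix glycoprotein genes Fn1, Nid1, Nid2 and Hspg2. Itgbl1, Itgb1bp and Itgb3bp genes, which do not encode integrin subunits, were left out. Each gene was represented by its brightest probe set, the group of array probes that reports on a transcript.

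The cells were primary neurospheres from the lateral ventricle wall of C57BL/6 mice aged 9 to 12 weeks. Neurospheres are floating clusters of neural stem and progenitor cells grown with growth factors. All cells received control siRNAs and pCLIG-Pax6 viral particles, which carry the neurogenic transcription factor Pax6, and after 36 h in suspension all were plated on laminin without growth factors for 10 h. Control cells (2 arrays) were kept in 0.01% DMSO and treated cells (2 arrays) in 100 nM olaparib, an inhibitor of PARP1 and PARP2, in the same solvent, given from the time of transduction. Both groups therefore met laminin protein from outside, and the arrays measured only the transcripts that the cells made. Arrays of 1 group are labelled as biological replicates, without saying whether they came from different mice.

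Collagens form the fibres and sheets of the extracellular matrix, and collagen IV, laminins, nidogens and perlecan make up basement membranes. Integrins are pairs of an alpha and a beta subunit that bind these proteins at the cell surface and tie them to actin. In the wall of the lateral ventricle, stem cells touch laminin-rich matrix of blood vessels, and the laminin receptor made of the alpha 6 and beta 1 subunits is known to hold them there.

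With olaparib, the integrin subunit genes Itga6 and Itga2 fell by 0.80 and 0.63 on the log2 scale, which corresponds to 1.74-fold and 1.55-fold. Fn1, which encodes fibronectin, fell by 0.33, and Itga5, which encodes the alpha subunit of the main fibronectin receptor, rose by 0.28. No collagen and no laminin gene passed the test in limma. Of 73 members bright enough to be tested (a mean log2 signal above 6.42), 1 rose and 3 fell at an adjusted p under 0.05, or 5.48%, where 6.22% of all 13956 genes tested passed, 2.84% higher and 3.37% lower. The share of members past the threshold was thus near that of all genes. Without DMSO replicate 1, and likewise without DMSO replicate 2, only Itga6 and Itga2 passed. A limma fit over the 21704 probe sets that exceed that filter, with or without a gene name, called 0 members, with adjusted p of 0.0576 for Itga2 and 0.0675 for Itga6. In that fit 12 of all genes passed, or 0.086%.

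The promoters of 3 integrin genes are shown because these genes moved differently: Itga2 fell, Itga5 rose, and Itga1 is the next protein-coding gene to Itga2 on chromosome 13 and did not pass the test. RefSeq windows for GRCm38.p6 were at hand for 61 of the 85 members, and Itga6, Fn1 and Nid2 were among the others. Each sequence is the 250 bases before the start site, 5′ to 3′ on the minus strand that carries the gene. Capitals mark GC boxes, the letters GGGCGG on either strand.
Itga2, chr13:114932101-114932350: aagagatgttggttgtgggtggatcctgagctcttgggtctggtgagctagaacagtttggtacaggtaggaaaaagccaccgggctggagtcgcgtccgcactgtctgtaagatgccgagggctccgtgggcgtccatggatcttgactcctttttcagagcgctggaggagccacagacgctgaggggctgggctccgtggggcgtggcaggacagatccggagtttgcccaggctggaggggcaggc
Itga1, chr13:115101965-115102214: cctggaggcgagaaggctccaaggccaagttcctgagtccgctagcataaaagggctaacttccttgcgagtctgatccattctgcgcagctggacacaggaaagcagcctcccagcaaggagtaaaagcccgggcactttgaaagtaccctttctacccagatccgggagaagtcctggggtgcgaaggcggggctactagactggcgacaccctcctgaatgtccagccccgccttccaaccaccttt
Itga5, chr15:103366792-103367041: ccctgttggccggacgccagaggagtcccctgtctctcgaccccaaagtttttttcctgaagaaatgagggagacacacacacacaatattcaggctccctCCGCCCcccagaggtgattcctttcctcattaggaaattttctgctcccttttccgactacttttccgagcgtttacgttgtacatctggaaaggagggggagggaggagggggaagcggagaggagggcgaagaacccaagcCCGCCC
The Itga5 window held 2 GC boxes, which began 149 and 6 bases before the start site, and the Itga2 and Itga1 windows held 0. A GC box was found in 32.7% of all 32851 RefSeq windows and in 49.3% of the 67 windows of members. The CCAAT box (found in 33.8% of all windows and 26.9% of those of members), the TATA box spelled TATAAA (12.4% and 7.46%) and the AP-1 site spelled TGANTCA (6.75% and 2.99%) were in none of the 3 windows. All were searched on both strands, and none of these letters is contained in another motif. The G and C content was 60.8% for Itga2, 57.6% for Itga1 and 55.6% for Itga5, against a median of 52.4% over all windows and 58.8% over those of members. These matches describe letters and do not show that a factor binds.

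Whether a gene lay above array background was judged against 3 panels, because each probe set has its own brightness at rest. The first was 1194 olfactory and vomeronasal receptor genes, with a 95th percentile of 6.43. The second was 76 genes of keratin-associated and cornified envelope proteins, with a 95th percentile of 7.24. The third was 35 genes of unrelated tissues, the brightest at 7.77. The brightest single genes of the first and second panels, at 7.94 and 8.22, were not used as levels. A member counted as above a level where both arrays of at least 1 group exceeded it. By the receptor panel, 72 of 85 members were above background, against 68.2% of all genes. By the keratin-associated panel 14 members were, or 16.5%, against 37.5% of all genes, and by the brightest unrelated gene 9 were, or 10.6%, against 25.7%.

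The families differed in the share of members above background, and their order depended on the panel. All 3 levels were exceeded by Lamb2, Lamc1, Fn1, Itga2, Itga6, Itgav, Itgb1, Itgb5 and Itgb8. Of these, Lamb2, Fn1 and Itga2 had no value above 8.22, that of the brightest keratin-associated gene. Col11a1, Col4a5, Lama5, Nid2 and Itga1 exceeded the keratin-associated level but not the highest one. Of the collagens, 41 of 44 exceeded the receptor level, but only 2 exceeded the keratin-associated level and 0 the brightest unrelated gene. Of the 27 integrins the counts were 19, 7 and 6, and of the 10 laminins 8, 3 and 2. In percent, collagens were at 93.2, 4.55 and 0, integrins at 70.4, 25.9 and 22.2, and laminins at 80, 30 and 20. Over all genes the shares were 68.2%, 37.5% and 25.7%, so by the keratin-associated level and the brightest unrelated gene each of these families was under the share of all genes. The 13 members that did not exceed the receptor level were Col10a1, Col28a1, Col6a4, Lama3, Lama4, Itgad, Itgae, Itgal, Itgam, Itgax, Itgb2, Itgb3 and Itgb6. For members between the receptor and the keratin-associated levels, signal and background cannot be told apart with these panels, and differences there may be understated.

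**Figure D1:**
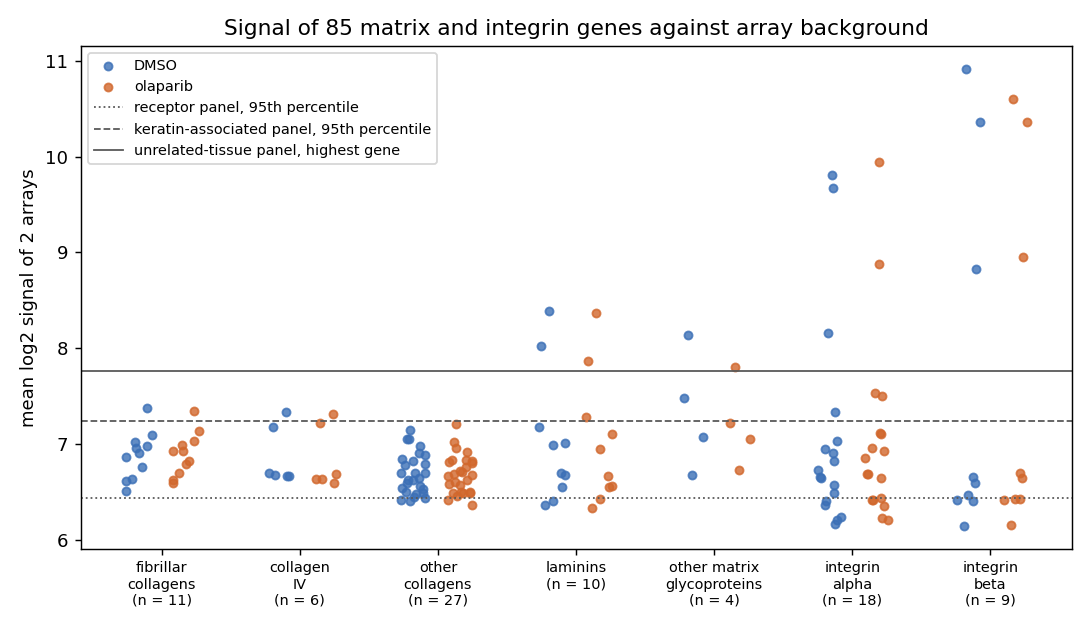
Mean log2 signal of each member over the 2 arrays of a group, by family, with DMSO in blue and olaparib in orange; lines mark the 95th percentile of the receptor panel (6.43), that of the keratin-associated panel (7.24) and the brightest gene of unrelated tissues (7.77). Nearly all collagens lie between the dotted and the dashed line. In at least 1 group, 6 integrins, 2 laminins and Fn1 lie above the solid line, Itga2 with DMSO only.

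Among the laminin-binding integrin subunits, Itga6, whose product pairs with beta 1 or beta 4, had log2 values of 9.61 and 9.73 with DMSO and 8.74 and 9.01 with olaparib. The arrays of the groups were well apart, and both olaparib arrays were lower. Its fall of 0.80 had an SE of 0.12 (adjusted p = 0.000226), and it passed in 14 of 15 alternatives, with a change between -0.93 and -0.67. Itga3 and Itga7 encode the other alpha subunits known mainly as laminin receptors. Itga3 lay at 6.92 and 6.89 with DMSO and at 7.12 and 7.13 with olaparib, a difference of 0.22 (SE 0.08, adjusted p = 0.102) at a level below that of the keratin-associated panel. Itga7 lay between 6.91 and 7.001 on the 4 arrays and its groups overlapped. Itgb4, the beta partner of alpha 6 in epithelia, lay between 6.62 and 6.74, also with overlap.

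Itga6 is known as a gene of neural stem cells. Some markers of the cell types also passed the test, beside 3.37% of all genes tested lower and 2.84% higher with olaparib. Of 7 stem cell and astrocyte markers, 1 fell, Gfap by 1.03 (adjusted p = 6.12e-05), and 0 rose. The others did not pass: Slc1a3 differed by -0.31, Sox2 by -0.23, Aldoc by -0.15, Glul by -0.08, Fabp7 by -0.03 and Nes by 0.23. The summed signal of all 7 on the log2 scale was 14.15 to 14.22 with DMSO and 13.94 to 14.12 with olaparib. Of 4 tested neuroblast and neuron markers, 1 fell, Dcx by 1.05. Tubb3 at -0.32, Dlx2 at -0.27 (adjusted p = 0.0508) and Rbfox3 at 0.0080 did not pass, and Stmn2 was too dim to be tested. The list of 5 summed to 10.56 to 10.60 with DMSO and 9.99 to 10.18 with olaparib. Of 5 oligodendrocyte lineage markers, 1 rose, Cspg4 by 0.33 (adjusted p = 0.0122). Mbp at 0.26, Olig1 at -0.15, Olig2 at -0.16 and Sox10 at -0.06 did not pass. The sum of the 5 was 11.56 to 11.61 with DMSO and 11.34 to 11.64 with olaparib. Of 5 choroid plexus markers 2 exceeded the receptor level, and only Otx2 exceeded the keratin-associated level. Of the 2 tested, Otx2 fell by 0.35 (adjusted p = 0.0124) and Folr1 differed by 0.0026. The list of 5 summed to 9.11 to 9.12 with DMSO and 8.94 to 8.996 with olaparib. Of 3 tested ependymal markers 0 passed in limma (adjusted p of at least 0.321). The part of these cell types in the fall of Itga6 was not tested. In such bulk samples, fewer cells of a type and less RNA per cell cannot be told apart.

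Among the collagen-binding subunits, Itga2 lay at 8.15 and 8.17 with DMSO and at 7.51 and 7.55 with olaparib. The arrays of each group lay close together, and the groups were far apart. Its fall of 0.63 had an SE of 0.09 (adjusted p = 0.000119), and it passed in 14 of 15 alternatives. Its olaparib values were under the brightest unrelated gene, so the size of the fall is less certain than its direction. Its neighbour Itga1, which encodes the other widely expressed collagen receptor, lay at 7.38 and 7.28 with DMSO and at 7.45 and 7.54 with olaparib, a difference of 0.17 (SE 0.08, adjusted p = 0.272). The groups did not overlap, and the difference had the opposite sign to that of Itga2. Itga10 and Itga11, which encode collagen receptors of cartilage and of fibroblasts, lay between 6.33 and 6.73 and overlapped between groups.

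Fn1 and the fibronectin receptor gene Itga5 differed in sign. Fn1 had values of 8.12 and 8.16 with DMSO and 7.79 and 7.83 with olaparib, a fall of 0.33 (SE 0.09, adjusted p = 0.0303). Both olaparib arrays lay below both DMSO arrays. Itga5, which pairs with beta 1 to bind fibronectin, had values of 6.79 and 6.86 with DMSO and 7.07 and 7.14 with olaparib, a rise of 0.28 (SE 0.08, adjusted p = 0.0310). All 4 of these values were under the keratin-associated level of 7.24, so Itga5 rose within the range where background is not excluded by that panel. Neither call held without a DMSO array: adjusted p was 0.262 for Fn1 and 0.419 for Itga5 without DMSO replicate 1, and 0.348 and 0.153 without DMSO replicate 2. In the limma fit over probe sets, Fn1 had an adjusted p of 0.181 and Itga5 one of 0.197. Itga4, Itga8 and Itga9, subunits of further receptors of fibronectin and related ligands, differed by 0.13, -0.10 and 0.04, with adjusted p of at least 0.445.

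The brightly measured partners did not pass the test. Itgb1, the beta subunit shared by the laminin, collagen and fibronectin receptors above, had values of 10.34 and 10.37 with DMSO and 10.31 and 10.40 with olaparib. The groups overlapped, and the difference was -0.00032 with an SE of 0.12. Itgav, the alpha subunit of vitronectin receptors and the partner of beta 5 and beta 8, lay at 9.79 and 9.82 with DMSO and at 9.93 and 9.95 with olaparib. This difference of 0.14 (SE 0.11, adjusted p = 0.601) separated the groups but did not pass. Itgb5 lay at 8.82 and 8.84 with DMSO and at 8.84 and 9.05 with olaparib, a difference of 0.12 (SE 0.11). Itgb8, known for activating TGF-beta together with alpha v, lay at 10.95 and 10.88 with DMSO and at 10.52 and 10.69 with olaparib. Its difference of -0.31 (SE 0.12, adjusted p = 0.148) separated the groups but did not pass, except under quantile normalization (adjusted p = 0.00715) and without olaparib replicate 2 (adjusted p = 0.00753).

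**Figure D2:**
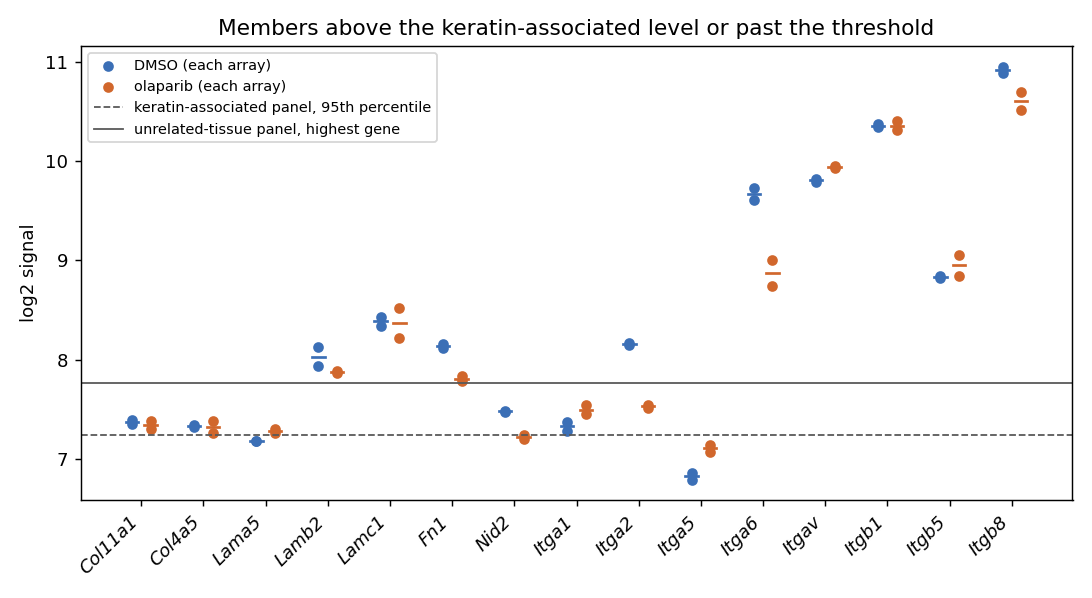
Log2 signal on each array (points) and group means (bars) of the 14 members above the keratin-associated level and of Itga5, which was past the threshold below it. The DMSO and olaparib points are far apart for Itga6 and Itga2, apart by less for Fn1 and Itga5, and overlap for Itgb1.

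The integrins of leukocytes and platelets were dim. Itgal, Itgam, Itgax and Itgad, alpha subunits of leukocytes, their partner Itgb2, and Itgae, the alpha partner of beta 7, had no value above 6.51, and Itgb7 reached 6.49. Itga2b and Itgb3, which form the fibrinogen receptor of platelets, reached 6.73 and 6.43. Of 9 measured markers of microglia and other leukocytes, 5 exceeded the receptor level and 0 the keratin-associated level. Itgb6, an epithelial partner of alpha v, had no value above 6.19. A second, dimmer probe set of Itgad gave a difference of 0.07, against 0.01 for the one used.

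Over the 19 integrins tested, 1 rose, 2 fell and 16 did not pass. The share past the threshold was 15.8%, beside 6.22% of all genes tested. With so few genes this share says little, and the 1 that rose, Itga5, passed in only 10 of 15 alternatives. The median difference was 0.04, and that of all genes tested was 0.0013. The groups did not overlap in 11 of the 19 integrins, 7 higher and 4 lower with olaparib, or 57.9%. Of all genes tested 47.1% were such, 23.2% higher and 23.9% lower. Without olaparib replicate 1 the median was 0.00048.

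Among the laminin chains, Lamc1 encodes the gamma chain found in most laminins, and its values were 8.43 and 8.34 with DMSO and 8.22 and 8.52 with olaparib. The groups overlapped and the olaparib arrays lay on either side of the DMSO arrays. The difference was -0.01 (SE 0.11), with 0.14 without olaparib replicate 1 and -0.17 without olaparib replicate 2. Lamb2, a beta chain of vascular and synaptic basement membranes, lay at 8.12 and 7.93 with DMSO and at 7.88 and 7.86 with olaparib, a difference of -0.16 (SE 0.09, adjusted p = 0.402). The other widespread beta chain, Lamb1, lay between 6.99 and 7.15 and differed by 0.10 (adjusted p = 0.561).

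The laminin alpha chains, which carry the binding site for integrins, were near background. Lama5 had values of 7.19 and 7.18 with DMSO and 7.30 and 7.26 with olaparib, a difference of 0.10 (SE 0.08). It exceeded the keratin-associated level with olaparib only. Lama1, Lama2, Lama3 and Lama4 lay between 6.31 and 6.997. Lamb3 and Lamc3, chains of epithelial and of other less common laminins, lay between 6.44 and 6.73. Of 8 laminins tested 0 passed in limma, with 0 at an unadjusted p under 0.05, beside 6.22% and 19.1% of all genes tested. With so few genes a count of 0 says little. The median difference was -0.02. Without olaparib replicate 1, Lamc3 passed at -0.24 (adjusted p = 0.0308).

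The basement membrane linkers had mixed values. Nid2, a nidogen that joins laminin to collagen IV, lay at 7.48 and 7.48 with DMSO and at 7.21 and 7.24 with olaparib. Both olaparib arrays were lower, by 0.26 on average (SE 0.08, adjusted p = 0.0569). This difference missed the threshold, and passed in 4 of 15 alternatives, among them without olaparib replicate 2 (adjusted p = 0.0400). Nid1, the other nidogen, lay between 6.61 and 6.74 and differed by 0.05 (SE 0.08). Hspg2, which encodes perlecan, lay between 7.04 and 7.10 and differed by -0.02 (SE 0.08).

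**Figure D3:**
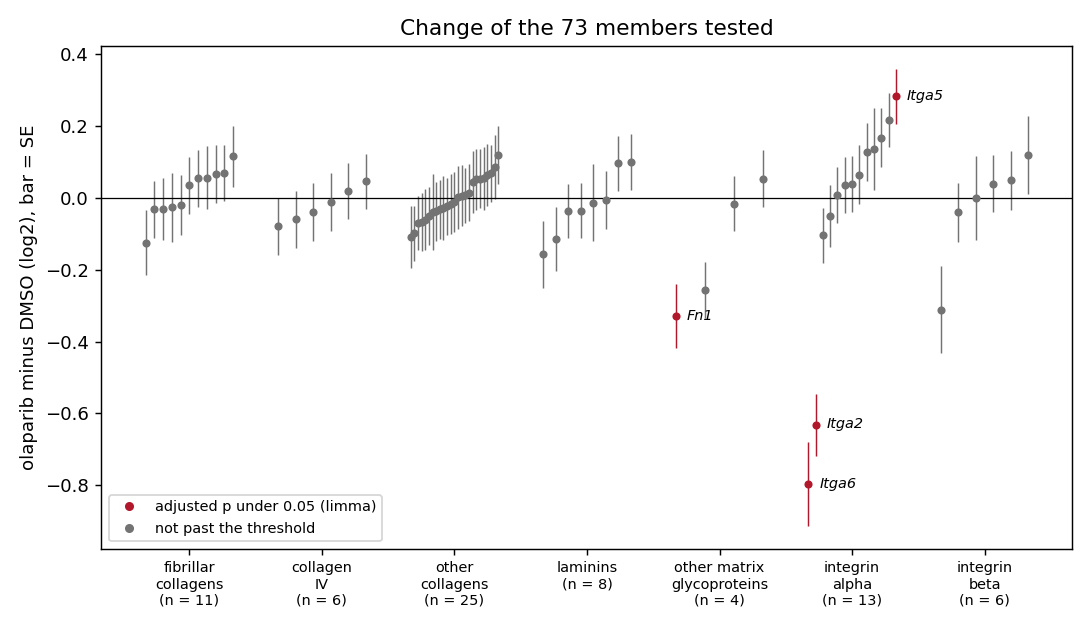
Olaparib minus DMSO on the log2 scale for the 73 members tested, ordered by size within each family, with bars of 1 SE from limma; red marks an adjusted p under 0.05. The collagens lie between -0.12 and 0.12, while Itga6, Itga2, Fn1 and Itga5 stand farther from 0.

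Collagens differed little between the treatments. Of 42 collagens tested 0 passed in limma, with 0 at an unadjusted p under 0.05, where 19.1% of all genes tested had such a p. Their differences ran from -0.12 to 0.12, with a median of -0.01 and a median size of 0.05, against a median size of 0.08 over all genes tested. The groups did not overlap in 5 of the 42, or 11.9%, against 47.1% of all genes tested. Dim genes in general showed fewer calls. Of 6420 genes with a mean between the receptor and the keratin-associated levels, 2.96% passed and 705 had an unadjusted p under 0.05 in limma. The groups did not overlap in 37.9% of these 6420 genes.

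The 11 fibrillar collagens, which build the fibres of connective tissue, included Col11a1, at 7.40 and 7.36 with DMSO and 7.31 and 7.38 with olaparib. It was the only fibrillar chain above the keratin-associated level, and its groups overlapped. Col1a1 and Col1a2, the chains of the main fibre of skin and bone, lay between 6.57 and 6.95 and differed by -0.12 (SE 0.09) and 0.06 (SE 0.09). Col3a1, the chain of reticular fibres, differed by 0.12 (SE 0.09). The median of the fibrillar chains was 0.04, with 0.12 without olaparib replicate 2 and -0.03 without olaparib replicate 1. Without olaparib replicate 1, Col1a1 passed at -0.28 (adjusted p = 0.0191), and without olaparib replicate 2 it was 0.03.

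Of the 6 collagen IV chains, the sheet-forming collagens of basement membranes, Col4a5 had values of 7.32 and 7.34 with DMSO and 7.38 and 7.26 with olaparib. The groups overlapped, with a difference of -0.01 (SE 0.08). Col4a6, its neighbour on the X chromosome, lay between 7.17 and 7.24. Col4a1 and Col4a2, the chains of nearly all basement membranes, lay between 6.57 and 6.75 and differed by -0.06 and -0.04. Col4a3 and Col4a4 lay between 6.54 and 6.73. The median of the 6 was -0.03, and it was 0.04 without olaparib replicate 2.

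The other 27 collagens, among them the beaded-filament chains Col6a1 to Col6a6, the fibril-associated chains Col9a1 to Col9a3 and Col12a1, the transmembrane chains Col13a1, Col17a1, Col23a1 and Col25a1, and Col15a1 and Col18a1 of basement membrane zones, had means from 6.40 to 7.18. Their differences ran from -0.11 for Col6a2 to 0.12 for Col18a1. The dimmer probe sets of Col6a5 and Col6a6 differed by -0.10 and 0.09, against -0.03 and -0.10 for those used. The median was -0.01, against -0.09 on leaving out olaparib replicate 1 and 0.08 on leaving out the other olaparib array.

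For collagens the gap between the 2 olaparib arrays was wider than the difference between treatments. Olaparib replicate 1 was higher than replicate 2 in 41 of 44 collagens, or 93.2%, with a median gap of 0.16. Col9a2 had 7.22 on replicate 1 and 6.82 on replicate 2, and Col27a1 had 7.18 and 6.81. DMSO replicate 1 was higher than DMSO replicate 2 in 36 of 44, with a median gap of 0.05. The gap between the olaparib arrays was -0.0085 in the median of the 27 integrins, -0.02 in the receptor panel, 0.02 in the keratin-associated panel and -0.0067 over all genes. Among the 6420 dim genes olaparib replicate 1 was higher in 71.2%, with a median gap of 0.07, and among the 40 collagens in that range in 38, with a median gap of 0.17. Most genes between those levels thus shared the direction of the gap, and the median gap of the collagens there was wider. In the keratin-associated panel olaparib replicate 1 was higher in 59.2%, and in the receptor panel in 40.4%. The receptor panel, with a median of 6.13, lay mostly under those levels and is no match for the collagens in brightness. Nor are the integrins, with means from 6.16 to 10.76 against 6.40 to 7.36 for collagens. The part of this difference between arrays in the collagen results was not tested.

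**Figure D4:**
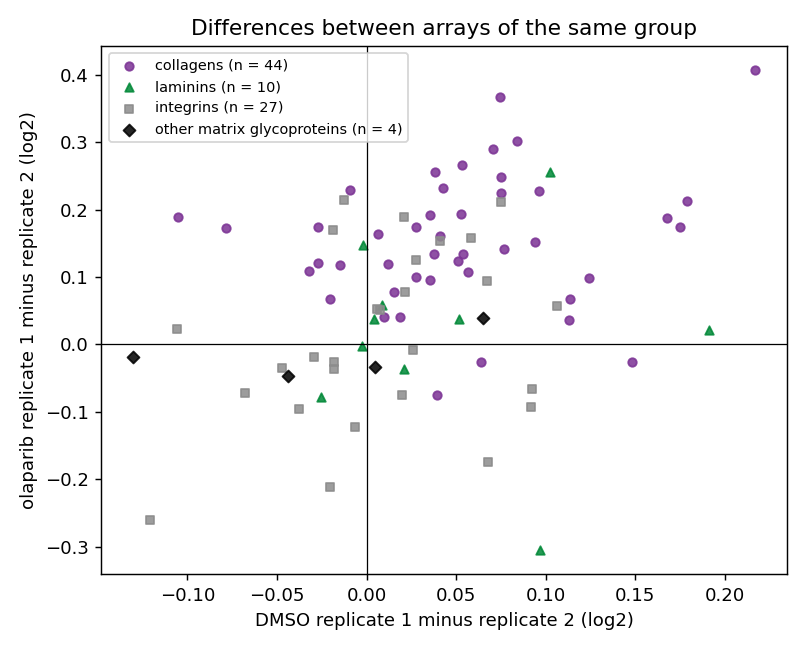
For each member, the difference between the 2 DMSO arrays (x axis) and between the 2 olaparib arrays (y axis), both as replicate 1 minus replicate 2 on the log2 scale. Of 44 collagens (purple circles) 41 lie above the horizontal line, while the 27 integrins (grey squares) lie on both sides of it.

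Markers of the cells that make most collagen were also dim. Of 7 measured fibroblast and meningeal markers 3 exceeded the receptor level and 0 the keratin-associated level, and their summed signal was 9.31 to 9.36 with DMSO and 9.26 to 9.30 with olaparib. Of 7 endothelial markers 1 exceeded the receptor level, 0 exceeded the keratin-associated level and 0 were bright enough to be tested. Of 7 pericyte and smooth muscle markers 5 and 1 did, the 1 being Acta2, which lay between 8.05 and 8.26.

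Genes that make, modify or accompany these matrix proteins were given as a list of 66, of which 61 were measured and 49 tested. At the threshold 2 rose and 8 fell, or 20.4% of those tested, beside 6.22% of all genes, and 39 missed it. The list was chosen with earlier results of these data known, so its share is a description and not independent evidence. The median difference was -0.06. Without DMSO replicate 1, and likewise without DMSO replicate 2, 1 rose and 4 fell, and without olaparib replicate 2, 3 rose and 13 fell. In the limma fit over probe sets, Thbs1 alone passed (adjusted p = 0.0471), or 1 gene of the list.

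Among collagen-modifying enzymes, P3h2, a prolyl 3-hydroxylase of collagen IV and other collagens, had values of 7.78 and 7.70 with DMSO and 8.54 and 8.50 with olaparib. It rose by 0.78 (SE 0.09, adjusted p = 2.78e-05). Plod1, a lysyl hydroxylase that prepares collagen for cross-linking, fell by 0.68 (SE 0.09), from 8.16 and 8.30 to 7.53 and 7.57. These 2 genes moved in opposite directions and were chosen for their small p. The other lysyl and prolyl hydroxylase genes tested did not pass. Plod2 differed by -0.22, Plod3 by 0.09, P3h1 by -0.0012 and P3h3 by -0.0094. P4ha1 differed by 0.08, P4ha3 by -0.21 and P4hb by -0.18.

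Among matrix proteins, Thbs1, the adhesive glycoprotein thrombospondin, had 7.56 on both DMSO arrays and 6.86 and 6.83 with olaparib, a fall of 0.71 (SE 0.08, adjusted p = 1.17e-05). Smoc1, a calcium-binding protein of basement membranes, fell by 0.70 (SE 0.10), and Tnr, a tenascin of the brain matrix, by 0.43 (SE 0.08). Thbs1 and Tnr ended under the keratin-associated level with olaparib. Timp3 and Timp2, inhibitors of matrix metalloproteinases, fell by 0.59 (SE 0.12) and 0.42 (SE 0.11). Bgn, a small proteoglycan, fell by 0.30, all of it under the keratin-associated level. Vcan and Ncan, large proteoglycans of brain matrix named after their values were seen, rose by 0.38 and fell by 0.47. The calls of Timp3, Timp2, Bgn, Vcan and Ncan were lost on leaving out either DMSO array, and that of Ncan also on leaving out olaparib replicate 1.

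Receptors of matrix other than integrins and the adaptors inside integrin adhesions formed a list of 55, with 52 measured and 48 tested. At the threshold 1 rose and 4 fell, or 10.4% of those tested, beside 6.22% of all genes, and 43 missed it, with a median of 0.02. This list too was chosen with earlier results of these data known. Dab2, an adaptor for integrin uptake, fell by 0.54 (SE 0.09, adjusted p = 0.000547), from 7.57 and 7.33 to 6.95 and 6.87. Ddr1, a collagen-binding receptor kinase, fell by 0.50 (SE 0.12, adjusted p = 0.0121), Sgcb, a subunit of the sarcoglycan complex, by 0.42 and Tns3, a tensin that binds integrin tails, by 0.34. Sdc2, a heparan sulfate receptor, rose by 0.44 (SE 0.13, adjusted p = 0.0499). The call of Dab2 was lost on averaging the probe sets of a gene. The other 4 calls were lost on leaving out either DMSO array, and that of Sdc2 also on leaving out olaparib replicate 2. The count was 1 without either DMSO array, 8 without olaparib replicate 1, 10 without olaparib replicate 2 and 0 in the limma fit over probe sets.

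**Figure D5:**
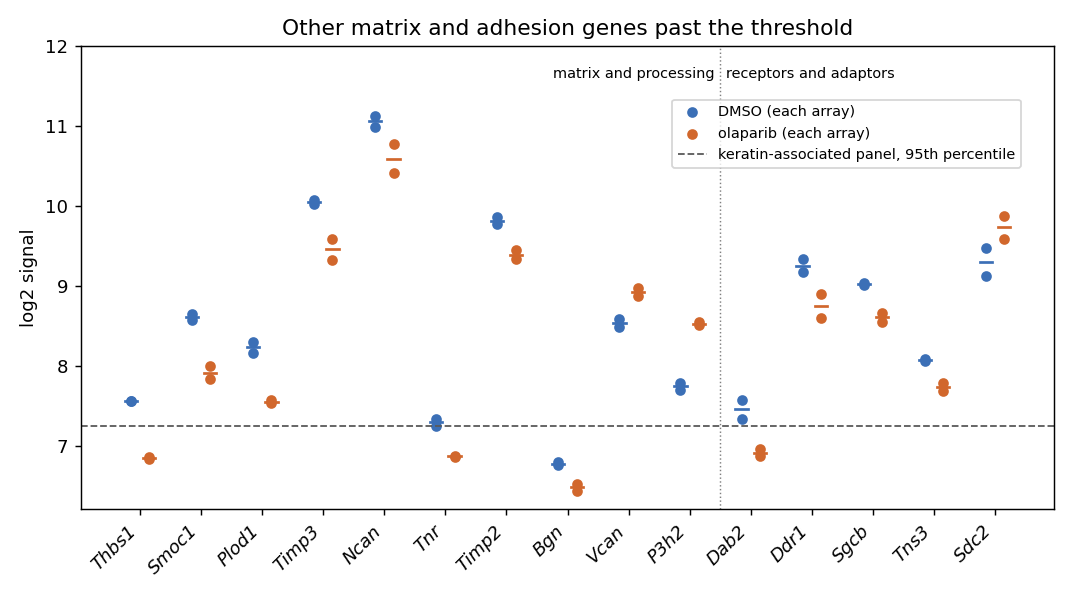
Log2 signal on each array (points) and group means (bars) for the 10 genes of matrix and matrix processing and the 5 receptor and adaptor genes past the threshold. P3h2, Vcan and Sdc2 were higher with olaparib and the other 12 lower, and the dashed line marks the keratin-associated level of 7.24.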

How the data were processed

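Per the labels' protocols, 40 ng of total RNA was amplified, given a biotin label and stained on Affymetrix arrays. The values are the log2 signals that the authors deposited, 1 per probe set and array; background correction and normalization are not given in the sources used here. The platform annotation gave 1 gene for 21640 of the 34760 probe sets, several for 1321, and did not list 11799. The 19937 genes were each represented by the brightest probe set, and 19855 matched the GRCm38.p6 RefSeq table. Genes with a mean above the 30th percentile (6.42) were tested with limma 3.58.1 under R 4.3.3 (lmFit, eBayes with trend, two-sided, Benjamini-Hochberg over all 13956 genes, threshold 0.05). Every adjusted p comes from limma.

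Array medians ran from 6.60 to 6.68, and a gene's SD within a group had a median of 0.048 (DMSO) and 0.077 (olaparib). With 2 arrays a group the number of arrays limits the precision. The prior on the spread was worth 18.1 degrees of freedom with 1 row per gene and 5.25 with all probe sets. The fit was tested on simulated data. Members and lists were chosen with earlier results of these data known. Members past the threshold, above the keratin-associated level or not above the receptor level were all named, and of those between these levels only a part. From each further list at most 8 genes were chosen by smallest p. Vcan, Ncan and the hydroxylase genes that did not pass were named besides. Alternatives varied the filter, normalization, floor, prior, probe sets, threshold and arrays. Promoter windows came from RefSeq. Figures were drawn with matplotlib 3.10.9.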

Additional observations from a re-analysis of the deposited data

How the results depend on the processing

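No called member changed sign in any alternative, and all 4 called members lost their call in at least 1 of them. Of 69 members not past the threshold, 4 passed in some alternative (Col1a1, Lamc3, Nid2 and Itgb8), and 44 changed sign in some alternative. The count of members past the threshold, 4, was 2 without a filter on low values and 0 with all probe sets in the fit, and ran from 2 to 6 with 1 array left out. Over all genes, 868 passed, with 573 without a filter, 1311 under quantile normalization, 1321 at an adjusted p under 0.1, 12 with all probe sets in the fit, and 258 to 2112 with 1 array left out. For matrix and matrix-processing genes the count of 10 was 1 with all probe sets in the fit and ran from 5 to 16 with 1 array left out. For receptors and adaptors the count of 5 was 3 without a filter, 9 under quantile normalization, 2 under median centring, 8 at an adjusted p under 0.1, 0 with all probe sets in the fit, and ran from 1 to 10 with 1 array left out. With all probe sets in the fit the prior on the spread was worth fewer degrees of freedom, and the log2 changes were the same. Where a DMSO array was left out, only the olaparib arrays, which differ more, gave the spread, and the lone array was assumed to vary like them.

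The 72 members above background were 14 by the keratin-associated panel, 9 by the brightest gene of unrelated tissues, 54 by the 99th percentile of the receptor panel and 82 by its 75th. The arrays hold no measured background per probe set, so probe brightness limits this count. With a filter at the 50th percentile, which tests fewer genes, the median change was -0.26 for Fn1, Nid1, Nid2 and Hspg2 (main value -0.14), 0.072 for integrin alpha genes (0.04) and 0.0086 for integrins (0.04). With 1 array left out, medians ran from -0.075 to 0.039 for collagen IV, -0.090 to 0.081 for other collagens, 0.0091 to 0.078 for integrin alpha genes, -0.018 to 0.025 for integrin beta genes and 0.00048 to 0.062 for integrins. Of 9 family medians, 4 kept their sign in all alternatives run on them. No paired analysis was possible because the labels number only the first array of each group, and the other replicate numbers used here only name samples in accession order.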

Other observations

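Several members lie next to each other on a chromosome, with no other protein-coding gene starting between them in the GRCm38.p6 table. Among the collagens, Col3a1 and Col5a2 differed by 0.12 and 0.04 between olaparib and DMSO, Col6a2 and Col6a1 by -0.11 and 0.01, Col4a4 and Col4a3 by -0.08 and 0.02, and Col9a1 and Col19a1 by 0.0018 and -0.08. Col4a1 and Col4a2 differed by -0.06 and -0.04, and Col4a6 and Col4a5 by 0.05 and -0.01. In the row of Col6a6, Col6a5 and Col6a4 the differences were -0.10, -0.03 and 0.05. None of these passed the test in limma, and Col19a1 was too dim to be tested. Itga2 and Itga1, at -0.63 and 0.17, were the only neighbouring pair of members in which a gene passed.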
